A study of Mus musculus with 6 samples.

Results

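The RNA of 34 genes of the NRF2 pathway, of glutathione metabolism and of antioxidant defence was followed in mouse primary keratinocytes. The genes were taken by symbol from the 52550 genes of the deposited table, and all 34 were found and had enough counts to be tested. Keratinocytes, the main cells of the epidermis, came from the skin of wild type C57BL/6 mice aged 0 to 2 days and were grown in plates for 2 days. One group was left untreated and the other received recombinant IL-33, an alarm cytokine related to IL-1, for 12 h. Each group had 3 RNA-seq libraries and the labels give no dose. The 3 libraries per group are numbered, but no label ties a number to a culture or an animal, and p-values therefore measure only how these libraries vary, which may be technical variation. The question the design puts to these genes is whether 12 h of IL-33 altered the RNA of the oxidant defence of keratinocytes.

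NRF2, encoded by Nfe2l2, is a transcription factor that KEAP1 holds in the cytoplasm and marks for degradation. Oxidants and electrophiles modify cysteines of KEAP1, and the NRF2 that then accumulates binds antioxidant response elements beside genes for glutathione synthesis, quinone reduction, iron storage, thioredoxin recycling and NADPH supply. In the epidermis this pathway is known for protecting keratinocytes against ultraviolet light and reactive chemicals, and because NRF2 is controlled largely through its protein, its targets are the usual RNA readout of its activity.

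None of the 34 genes passed the test between the groups. The test was edgeR's quasi-likelihood test with p-values adjusted over all tested genes, and it called 11 of 15778 genes (0.0697%) at an adjusted p under 0.05, 0.0444% higher and 0.0254% lower with IL-33. At an unadjusted p under 0.05 there were 3 of the 34 (8.82%), against 6.74% of all tested genes: Srxn1, Prdx6 and Abcc1, all with lower values in the IL-33 libraries. DESeq2, limma-voom and limma on FPKM also called 0 of the 34, where DESeq2 called 0.32% of all the genes it tested. Log2 fold changes, given throughout as IL-33 minus untreated, were above 0 for 21 genes and below 0 for 13, with a median of 0.02 beside 0.00 for all tested genes. Of all tested genes, 50.5% were above 0. The 3 libraries of one group all lay on one side of the 3 of the other for 6 of the 34 genes, 2 higher and 4 lower with IL-33, in a table where 13.7% of tested genes showed such an order, 7.41% higher and 6.27% lower.

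The libraries measured most of these genes closely. The 95% interval of the fold change lay inside 1.5-fold in either direction for 31 of the 34 genes, the exceptions being Gclm, Gpx1 and Gpx2. Among the 12091 tested genes with a mean log2 CPM of at least 1, where CPM is the deposited count scaled to library size with TMM factors, the interval was that narrow for 80.8%, and 33 of the 34 genes are among them. The median coefficient of variation between libraries of a group was 4.14%, beside 10.7% for all tested genes. All tested genes include many of lower level, so these figures are not matched by level. A gene that did not pass is not shown by that to be equal in the groups, and its interval gives the sizes of difference that remain possible.

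**Figure D1:**
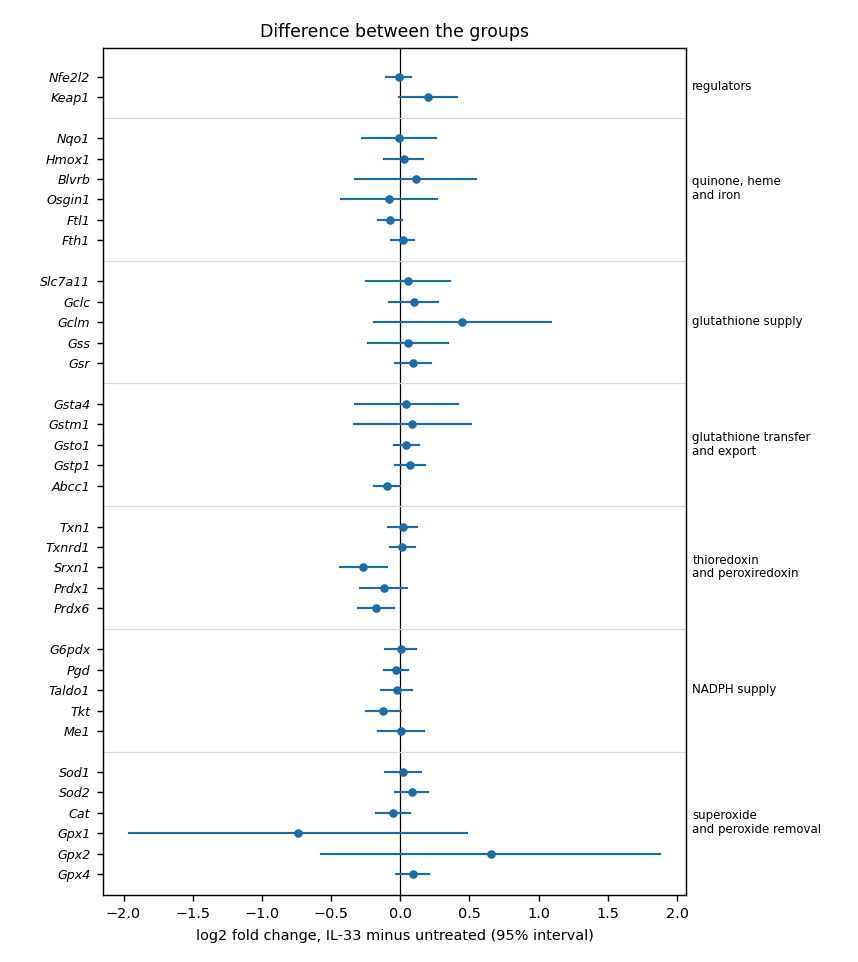
Log2 fold change of each of the 34 genes (IL-33 minus untreated, points) with its 95% interval from edgeR (bars), grouped by role. Most points lie near 0 with short bars, while the bars of Gclm, Gpx1 and Gpx2 extend past 1.5-fold.

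The libraries held 34188173 to 45266298 deposited counts, with IL-33 replicate 2 the shallowest. Markers of basal keratinocytes dominated, at a summed 33830.2 to 34954 CPM without and 33946 to 36666 CPM with IL-33, and suprabasal markers summed to 16.7 to 17.3 CPM without and 14.1 to 17.5 CPM with IL-33. Of the other cell types that epidermis can hold, melanocyte markers were plain, with 5 of 5 tested and a sum of 1094 to 1147 CPM without and 1092 to 1187 CPM with IL-33. Fibroblast markers summed to 29.7 to 38.1 CPM without and 26.5 to 31.0 CPM with IL-33. Endothelial markers summed to 13.4 to 19.2 CPM without and 16.1 to 16.7 CPM with IL-33. That sum was mostly Kdr, while the endothelial gene Cdh5 held 0 to 9 deposited counts. Myeloid markers summed to 9.78 to 11.3 CPM without and 10.1 to 15.4 CPM with IL-33, mostly Csf1r. The mast cell genes Cpa3, Mcpt4 and Tpsb2, the T cell genes Cd3e, Cd3g and Trdc and the Langerhans cell gene Cd207 were at 0 in all 6 libraries. The remaining mast cell gene, Cma1, held 0 to 15 deposited counts, and the remaining T cell gene, Thy1, which other cell types also express, stood at 3.28 to 4.19 CPM without and 2.82 to 4.34 CPM with IL-33. Melanocytes also express antioxidant genes, and their part in the values below was not tested. In bulk RNA, fewer cells of a type and less RNA per cell cannot be told apart.

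Nfe2l2, the gene of NRF2 (ENSMUSG00000015839.6, chromosome 2, 75675513 to 75704641, minus strand), had almost the same RNA level in every library, with 213, 206 and 206 CPM in the untreated libraries and 206, 211 and 203 CPM in the IL-33 libraries. The groups overlapped, and no library stood apart (log2 fold change -0.01, SE 0.0409, 95% interval -0.10 to 0.08, edgeR adjusted p = 0.971). Keap1, the gene of its inhibitor (ENSMUSG00000003308.15, chromosome 9, 21229730 to 21239361, minus strand), had 52.8, 62.5 and 53.9 CPM in the untreated libraries and 67.5, 57.3 and 69.6 CPM in the IL-33 libraries. IL-33 replicates 1 and 3 were the highest of the 6, and IL-33 replicate 2 lay within the untreated range. The Keap1 means were 56.4 ± 5.29 CPM without and 64.8 ± 6.58 CPM with IL-33 (± SD of 3 libraries each), and the gene did not pass (log2 fold change 0.20, SE 0.0929, 95% interval -0.01 to 0.41, edgeR adjusted p = 0.763). Gm16754, an antisense gene that overlaps Keap1, held 222, 260 and 296 deposited counts without IL-33 and 187, 71 and 82 with it. These counts are not scaled to library size, so the libraries were not ranked by them. The strand setting of the counting was not given in the sources used here, so reads of Keap1 and Gm16754 cannot be told apart with certainty. Per length, Nfe2l2 stood at 49.4 ± 0.979 and 49.0 ± 1.11 FPKM (fragments scaled to gene length and library depth), above Keap1 at 10.8 ± 0.991 and 12.4 ± 1.26 FPKM.

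The DNA core of the antioxidant response element, TGACNNNGC with N for any base, was looked for on both strands of promoter windows that run from 250 bases before to 50 bases after each RefSeq gene start (build GRCm38.p6). The table held windows for 28 of the 34 genes, and 9 of these genes (32.1%) had the core, where 3781 of all 27025 genes with a window (14%) did. A gene can have several windows and was counted if any of them matched, here and for the motifs below. By window the shares were 23.7% of 38 and 12.4% of all 32851. The 34 genes were picked for their known roles, so the higher share is no result of the IL-33 comparison. The 9 are Nfe2l2, Srxn1, Gclm, Prdx1, Pgd, Me1, Txnrd1, Sod1 and G6pdx. A match is a run of letters and no measure of binding. The 5 below are shown since they stand by the regulator itself, by the genes with the smallest p and the largest log2 fold change among the 9, and by both genes in which the core takes the form TGACTCAGC, which also holds the AP-1 motif TGANTCA. Capitals mark the core.
Nfe2l2 (chr2:75704885-75704913, minus strand): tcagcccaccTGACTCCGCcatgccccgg
Srxn1 (chr2:152105542-152105570, minus strand): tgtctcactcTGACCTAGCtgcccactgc
Gclm (chr3:122245413-122245441, minus strand): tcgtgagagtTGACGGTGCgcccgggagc
Prdx1 (chr4:116685456-116685484, minus strand): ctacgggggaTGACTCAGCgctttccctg
Me1 (chr9:86695902-86695930, minus strand): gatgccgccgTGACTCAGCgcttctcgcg

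The form TGACTCAGC was found in the windows of 0.503% of all genes and of 2 of the 28 (7.14%). AP-1 motifs of any form lay in the windows of 5 of the 28 genes (17.9%), namely Gstp1, Me1, Osgin1, Prdx1 and Srxn1, and of 8.97% of all genes. Of the 9 genes with the core in a window, 5 had a log2 fold change above 0 (median 0.00), as did 12 of the 19 whose window lacked it (median 0.04). Sequence outside the windows was not searched, so a gene without a match may still have the core elsewhere. The genes printed above lay on both sides of 0, from Srxn1 at -0.27 to Gclm at 0.45. Hmox1, Gclc, Gsr, Gsta4, Abcc1 and Prdx6 had no window in the table.

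**Figure D2:**
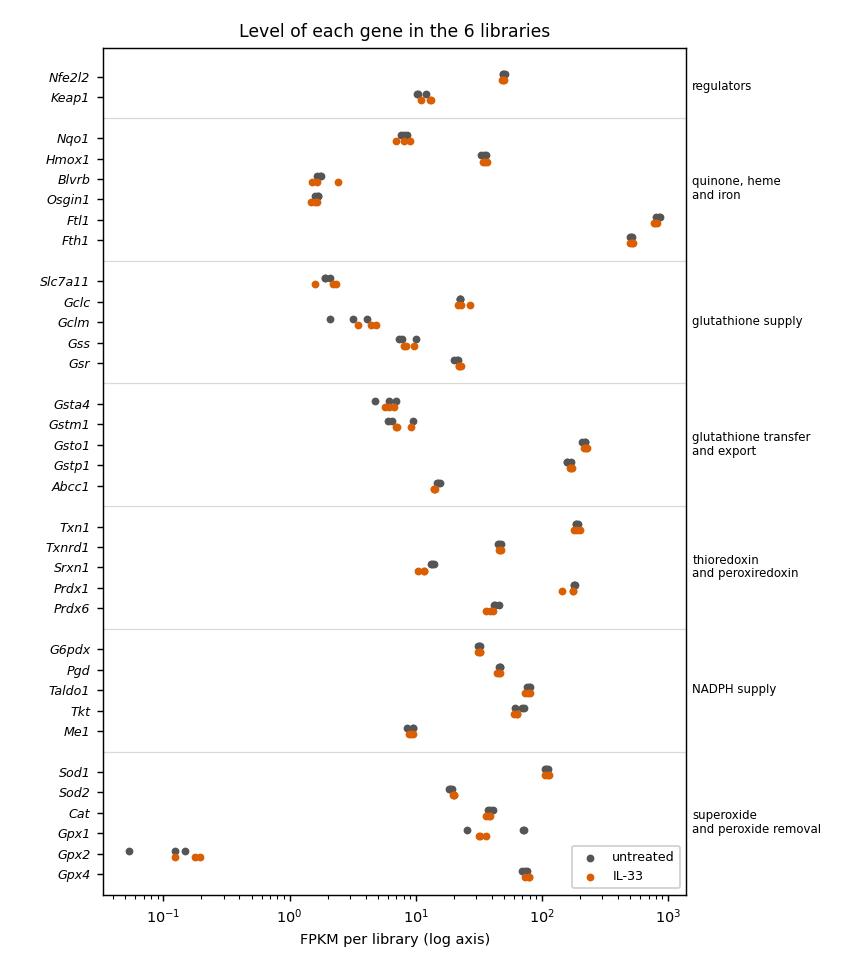
Level of each of the 34 genes in FPKM on a log axis, 1 point per library, untreated in grey and IL-33 in orange, grouped by role. Ftl1 and Fth1 are the highest and Gpx2 is the lowest, and for most genes the points of both groups lie on top of each other.

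The classical NRF2 targets of quinone, heme and iron metabolism showed no gene past the test, with 3 of 6 above 0. Nqo1, the quinone reductase whose RNA is the usual marker of NRF2 activity, stood at 13.9 ± 0.652 CPM without and 13.8 ± 1.68 CPM with IL-33 (± SD of 3 libraries each; log2 fold change -0.01, SE 0.120, 95% interval -0.28 to 0.26, edgeR adjusted p = 0.991). Hmox1, which opens the heme ring, stood at 67.6 ± 3.0 CPM without and 68.8 ± 2.33 CPM with IL-33 (95% interval of the log2 fold change -0.11 to 0.16). Both intervals include 0 and exclude a doubling.

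Blvrb, a biliverdin reductase downstream of heme breakdown, had 5.47, 5.43 and 5.16 CPM in the untreated libraries and 5.12, 7.51 and 4.75 CPM in the IL-33 libraries. IL-33 replicate 2 was high and the other 5 libraries were close together, so its difference (log2 fold change 0.11, SE 0.197, edgeR adjusted p = 0.946) came with a wide error. Without that library its log2 fold change was -0.12. Osgin1, an oxidative stress growth inhibitor, stood at 4.95 ± 0.184 CPM without and 4.68 ± 0.207 CPM with IL-33.

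The ferritin genes of iron storage had the highest levels per length of all 34. Ftl1, the ferritin light chain (ENSMUSG00000050708.16, chromosome 7, 45457944 to 45459884, minus strand), stood at 835 ± 31.3 and 791 ± 17.9 FPKM (untreated and IL-33), and Fth1, the heavy chain, at 507 ± 9.53 and 513 ± 11.4 FPKM. Ftl1 had 1257, 1284 and 1189 CPM in the untreated libraries and 1158, 1209 and 1169 CPM in the IL-33 libraries. The IL-33 values lay in the lower part of the range, with 1 library inside that of the untreated group, and the gene did not pass (log2 fold change -0.08, SE 0.0388, 95% interval -0.16 to 0.01, edgeR adjusted p = 0.763). Gm10252, which overlaps Ftl1 on the opposite strand, held 27379, 25461 and 26712 deposited counts without IL-33 and 25709, 20729 and 27629 with it, where Ftl1 held 56272, 53158 and 53902 without IL-33 and 50914, 41190 and 51639 with it. Gm22133 on the same strand held 10.3% as many as Ftl1. With both overlaps the Ftl1 counts are uncertain. Fth1 stood at 488 ± 9.77 CPM without and 494 ± 11.4 CPM with IL-33, with a log2 fold change of 0.02.

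All 5 genes of glutathione supply had log2 fold changes above 0 and none passed. Slc7a11, Gclc and Gss among them changed sign when libraries were left out in turn. The median of the 5 was 0.09. Slc7a11, the cystine importer that brings in the scarce building block of glutathione, stood at 30.4 ± 1.71 CPM without and 31.6 ± 6.04 CPM with IL-33 (± SD of 3 libraries each), and IL-33 replicate 2 was the lowest of its 6 values at 24.7 CPM. Gclc, the catalytic subunit of the rate-limiting ligase, had 92.9, 93.9 and 93.4 CPM in the untreated libraries and 95.3, 113 and 91.3 CPM in the IL-33 libraries. Untreated values were nearly identical, and IL-33 replicate 2 was the only high value (log2 fold change 0.10, SE 0.0787, edgeR adjusted p = 0.843). Without it the log2 fold change was -0.00.

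Gclm, the modifier subunit of that ligase (ENSMUSG00000028124.15, chromosome 3, 122245557 to 122270732, plus strand), had 14.8, 28.7 and 22.3 CPM in the untreated libraries and 24.6, 30.9 and 34.3 CPM in the IL-33 libraries. Untreated replicate 1 was the lowest and IL-33 replicate 3 the highest, and the groups overlapped. The means were 21.9 ± 6.95 CPM without and 29.9 ± 4.91 CPM with IL-33 (log2 fold change 0.45, SE 0.260, 95% interval -0.19 to 1.09, edgeR adjusted p = 0.8). Its log2 fold change ranged from 0.22 to 0.68 over all the settings tried. Gm17494 and Gm6061 overlap Gclm and held 56.6% and 45.3% as many counts, so its level is uncertain. Per length the catalytic subunit was the higher, with Gclc at 22.3 ± 0.0826 and 23.9 ± 2.84 FPKM and Gclm at 3.13 ± 0.988 and 4.27 ± 0.696 FPKM.

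Gss, which adds glycine to complete glutathione, stood at 55.3 ± 9.50 CPM without and 57.5 ± 5.63 CPM with IL-33. Acss2 overlaps it on the opposite strand with 32.2% as many counts. Gsr, the reductase that returns oxidised glutathione to its reduced form, had 61.7, 66.3 and 64.6 CPM in the untreated libraries and 69.3, 67.8 and 68.0 CPM in the IL-33 libraries. Every IL-33 library lay above every untreated one, by a small margin (log2 fold change 0.09, SE 0.0582, 95% interval -0.04 to 0.22, edgeR adjusted p = 0.808).

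Of the genes of glutathione transfer and export, 4 of 5 had log2 fold changes above 0 and the exporter was the exception. Gsto1, an omega-class transferase with reductase activity, was the highest of the 5 per length at 215 ± 5.88 and 222 ± 6.98 FPKM. It had 475, 457 and 479.6 CPM in the untreated libraries and 467, 498 and 489.7 CPM in the IL-33 libraries, with overlapping groups (log2 fold change 0.04, SE 0.0398, edgeR adjusted p = 0.876). Cfap43 overlaps Gsto1 on the opposite strand with 7.64% as many counts. Gstp1, the pi-class transferase, stood at 137 ± 6.06 CPM without and 144 ± 2.497 CPM with IL-33; the near copies Gstp2 and Gstp3 held 7.11% and 1.17% as many counts, and reads may be split among them. The transferases Gsta4 and Gstm1 were low, at 8.43 ± 1.59 CPM without and 8.69 ± 0.741 CPM with IL-33 and at 12.0 ± 3.03 CPM without and 12.7 ± 2.02 CPM with IL-33.

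Abcc1, the membrane pump MRP1 that exports glutathione conjugates (ENSMUSG00000023088.16, chromosome 16, 14361558 to 14475737, plus strand), had 212, 201 and 205 CPM in the untreated libraries and 192, 190.5 and 197 CPM in the IL-33 libraries. Every IL-33 library lay below every untreated one. The means were 206 ± 5.603 CPM without and 193 ± 3.15 CPM with IL-33 (± SD of 3 libraries each), and the unadjusted edgeR p of 0.0444 became an adjusted p of 0.74 (log2 fold change -0.10, SE 0.0419).

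The 5 thioredoxin and peroxiredoxin genes held 2 of the 3 smallest p-values, but none passed (smallest edgeR adjusted p = 0.598). They also held 3 of the 6 genes whose groups did not overlap, namely Srxn1, Prdx1 and Prdx6, all 3 lower with IL-33. Among all 15778 tested genes, 6.27% were lower in every IL-33 library than in every untreated one. For Prdx1 the gap was narrow, at 599 against 605 CPM. Whether these 5 genes differed as a set was not tested. Txn1, the small protein that passes electrons to oxidised partners, was the highest of the 5 per length at 187 ± 3.46 and 189.8 ± 9.27 FPKM. It had 216, 218 and 223 CPM in the untreated libraries and 221, 211 and 233 CPM in the IL-33 libraries, and its groups overlapped (log2 fold change 0.02, SE 0.0469, edgeR adjusted p = 0.965). Txnrd1, the reductase that recharges it, stood at 363 ± 10.9 CPM without and 367 ± 8.62 CPM with IL-33 (log2 fold change 0.02).

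Srxn1, the sulfiredoxin that repairs over-oxidised peroxiredoxins (ENSMUSG00000032802.8, chromosome 2, 152105516 to 152111376, plus strand), had the smallest p of the 34. It had 42.4, 43.6 and 41.1 CPM in the untreated libraries and 32.3, 36.5 and 36.8 CPM in the IL-33 libraries. The IL-33 values were all below the untreated ones, with IL-33 replicate 1 the lowest. The means were 42.4 ± 1.27 CPM without and 35.2 ± 2.52 CPM with IL-33 (± SD of 3 libraries each). The unadjusted edgeR p was 0.00607 and the adjusted p 0.598 (log2 fold change -0.27, SE 0.0764, 95% interval -0.44 to -0.10). Its adjusted p ran from 0.289 to 0.958 over all settings, so the gene passed in none, and its log2 fold change from -0.30 to -0.21. Srxn1 is one of the genes with an element core printed above.

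Prdx1, the abundant cytosolic peroxiredoxin that sulfiredoxin repairs, had 605, 612 and 612 CPM in the untreated libraries and 595, 489.7 and 599 CPM in the IL-33 libraries. Untreated values differed little, and most of the difference lay in IL-33 replicate 2 (log2 fold change -0.12, SE 0.0735, edgeR adjusted p = 0.808). Without that library the log2 fold change was -0.03. Prdx6, the 1-cysteine peroxiredoxin that also acts on phospholipids (ENSMUSG00000026701.15, chromosome 1, 161240112 to 161251219, minus strand), had 243, 227 and 223 CPM in the untreated libraries and 205, 191 and 219 CPM in the IL-33 libraries. All IL-33 values were below all untreated ones, with IL-33 replicate 2 again the lowest. Its means were 231 ± 10.6 CPM without and 205 ± 14.2 CPM with IL-33 (± SD of 3 libraries each), with an unadjusted edgeR p of 0.0146 and an adjusted p of 0.71 (log2 fold change -0.17, SE 0.0581).

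The genes of NADPH supply, which feeds electrons to both glutathione and thioredoxin, had 2 of 5 log2 fold changes above 0 and none past the test (median -0.02 on the log2 scale). G6pdx, the entry enzyme of the pentose phosphate pathway, stood at 109 ± 2.03 CPM without and 109 ± 2.60 CPM with IL-33, and Pgd, which makes the pathway's other NADPH, at 333 ± 5.25 CPM without and 325 ± 7.52 CPM with IL-33 (± SD of 3 libraries each). Ikbkg overlaps G6pdx on the opposite strand with 43.4% as many counts. Me1, the malic enzyme, stood at 39.1 ± 2.31 CPM without and 39.2 ± 1.68 CPM with IL-33.

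Taldo1, the transaldolase, was the highest of these 5 genes per length at 78.3 ± 2.13 and 77.0 ± 3.81 FPKM, and had 183, 192 and 192 CPM in the untreated libraries and 175, 193 and 189 CPM in the IL-33 libraries. The groups overlapped. Tkt, the transketolase (ENSMUSG00000021957.7, chromosome 14, 30548359 to 30574720, plus strand), had 569, 503 and 588 CPM in the untreated libraries and 514, 516 and 493 CPM in the IL-33 libraries. Untreated replicate 2 lay among the IL-33 values and the other untreated libraries above them, and the gene did not pass (log2 fold change -0.12, SE 0.0565, 95% interval -0.25 to 0.00, edgeR adjusted p = 0.754).

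**Figure D3:**
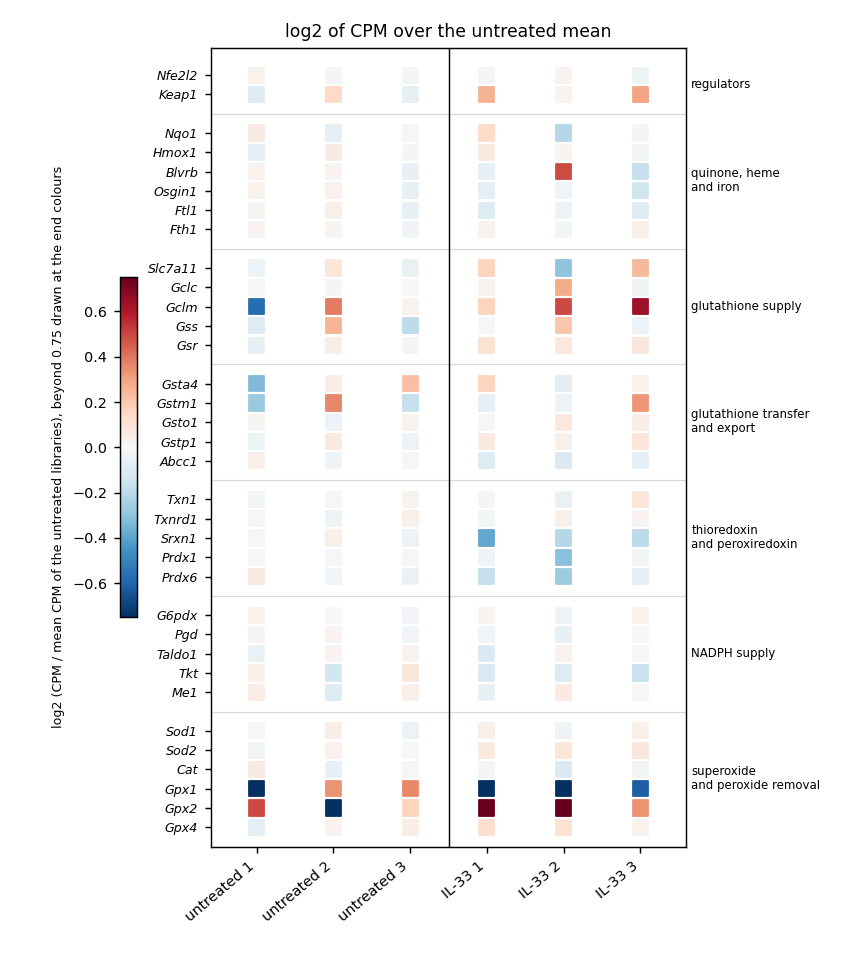
Each square is 1 gene in 1 library, coloured by log2 of its CPM over the mean of the untreated libraries (red higher, blue lower, values beyond 0.75 at the end colours). Most squares are pale, and the strongest colours are those of Gclm, Gpx1, Gpx2 and the single value of Blvrb in IL-33 replicate 2.

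The enzymes that remove superoxide and peroxide included the gene with the largest log2 fold change of the 34 in size, Gpx1, which was high in 2 untreated libraries. Sod1, the cytosolic superoxide dismutase, was the highest of the 6 per length at 109 ± 3.32 and 110.4 ± 3.31 FPKM, and had 77.7, 81.0 and 76.0 CPM in the untreated libraries and 80.7, 76.5 and 80.5 CPM in the IL-33 libraries. Scaf4 overlaps its locus on the opposite strand with 112% as many counts. Sod2, the mitochondrial dismutase and a known target of NF-kB, had 78.5, 82.0 and 79.8 CPM in the untreated libraries and 84.2, 85.2 and 84.9 CPM in the IL-33 libraries. Each IL-33 value was above each untreated value, by a few percent (log2 fold change 0.08, SE 0.0529, 95% interval -0.04 to 0.20, edgeR adjusted p = 0.808). Cat, the peroxisomal catalase, stood at 114 ± 4.83 CPM without and 109.7 ± 4.10 CPM with IL-33.

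Gpx1, the main cytosolic glutathione peroxidase (ENSMUSG00000063856.7, chromosome 9, 108338903 to 108340343, plus strand), had 40.6, 113 and 115 CPM in the untreated libraries and 51.8, 50.6 and 58.3 CPM in the IL-33 libraries. Untreated replicates 2 and 3 were high, and untreated replicate 1 was the lowest of all 6. The groups therefore overlapped, with means of 89.4 ± 42.2 CPM without and 53.5 ± 4.14 CPM with IL-33 (± SD of 3 libraries each; log2 fold change -0.74, SE 0.451, 95% interval -1.96 to 0.48, edgeR adjusted p = 0.814). Without untreated replicate 1, Gpx1 was lower with IL-33 and passed, at a log2 fold change of -1.09 and an edgeR adjusted p of 0.00216 (0.00216 to 0.971 over all settings), where 0.0925% of all genes were called. No annotated gene overlaps Gpx1. Its neighbour Rhoa, which ends upstream of it on the same strand, held 22999, 19612 and 22394 deposited counts without IL-33 and 21311, 16901 and 21075 with it, with a log2 fold change of -0.02. Gm37401, which lies on the opposite strand between Gpx1 and the end of Rhoa and overlaps the latter, held 3324, 2127 and 3185 deposited counts without IL-33 and 2014, 1656 and 2479 with it (log2 fold change -0.38, unadjusted edgeR p 0.0356, adjusted p 0.74).

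Gpx4, the peroxidase of membrane lipid hydroperoxides and the guardian against ferroptosis, had 132, 141 and 144 CPM in the untreated libraries and 152, 151 and 142 CPM in the IL-33 libraries. The groups overlapped at their edges (log2 fold change 0.09, SE 0.0528, 95% interval -0.03 to 0.21, edgeR adjusted p = 0.783). Gpx2, the peroxidase typical of gut epithelium, was near the floor of 12 deposited counts per library, with 26, 8 and 21 deposited counts without IL-33 and 31, 25 and 23 with it. Untreated replicate 2 was under the floor and the other 5 not far above it. Its log2 fold change of 0.65 had an SE of 0.547, and ran from 0.07 to 0.97 over all settings. Fntb, a far more abundant gene, overlaps Gpx2 on the opposite strand. The non-coding ENSMUST00000220569.1 held a mean 83.1% of the Gpx2 counts and the coding ENSMUST00000082431.3 held 6.15%.

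These peroxidases and Txnrd1 are selenoproteins: a TGA codon inside the coding part is read as selenocysteine, the residue at their active site. Of the 34 genes, 4 carry such a codon, among 24 genes in the GENCODE M21 annotation (GRCm38). The surrounding coding bases are shown since the Gpx1 transcripts below differ in holding this codon. TGA in capitals is the selenocysteine codon.
Gpx1 (chr9:108339451-108339453 for the codon, plus strand): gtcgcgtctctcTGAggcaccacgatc
Gpx2 (chr12:76795256-76795258 for the codon, minus strand): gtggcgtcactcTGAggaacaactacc
Gpx4 (chr10:80054737-80054739 for the codon, plus strand): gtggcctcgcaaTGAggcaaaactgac
Txnrd1 (chr10:82896037-82896039 for the codon, plus strand): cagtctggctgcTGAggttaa

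In Gpx1, Gpx2 and Gpx4 the codon is number 47 of 201, 40 of 190 and 73 of 197, in the front part of the protein. In Txnrd1 it is number 498 of 499, the last but one before the stop. The 4 genes had log2 fold changes of -0.74, 0.65, 0.09 and 0.02, with no shared direction. The Gpx2 codon is that of its coding transcript, which held few of the Gpx2 counts.

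The transcript table divides each gene's counts among its annotated transcripts. For the 34 genes it listed 151 transcripts, of which 93 were tested and 0 passed, where edgeR called 12 of 40163 tested transcripts (0.0299%). At an unadjusted p under 0.05 there were 6 of the 93, against 4.24% of all tested transcripts. One transcript held over 90% of the counts of 25 genes, and the leading transcript was the same in all 6 libraries for 29. It was not for Blvrb, Gclm, Gpx1, Gpx2 and Gss.

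The Gpx1 gene counts were high where 1 of its transcripts was high. ENSMUST00000082429.6, which holds the selenocysteine codon, had 136, 4425 and 3181 deposited counts without IL-33 and 131, 100 and 117 with it. ENSMUST00000191997.1, whose annotated coding part begins at 108339481, past that codon, had 1671, 217 and 1978 deposited counts without IL-33 and 2135, 1610 and 2455 with it. The first made up 7.48%, 94.8% and 61.2% of the untreated and 5.75%, 5.81% and 4.55% of the IL-33 counts, so the 2 libraries with high Gpx1 are the 2 in which it led.

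All 787 exonic bases of ENSMUST00000191997.1 lie within the 1072 of ENSMUST00000082429.6, so short reads from the shared part do not tell them apart. The difference in ENSMUST00000082429.6 did not pass (log2 fold change -4.40, SE 1.24, edgeR adjusted p = 0.965). It passed in DESeq2, with an adjusted p of 0.0157, where that tool called 0.936% of all transcripts. It also passed without untreated replicate 1, with an edgeR adjusted p of 0.0375 (0.0157 to 1.00 over all settings), where 0.0341% were called. Every IL-33 value was under every untreated value, though untreated replicate 1 was close to them. Whether the assignment to transcripts set the gene total was not tested.

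**Figure D4:**
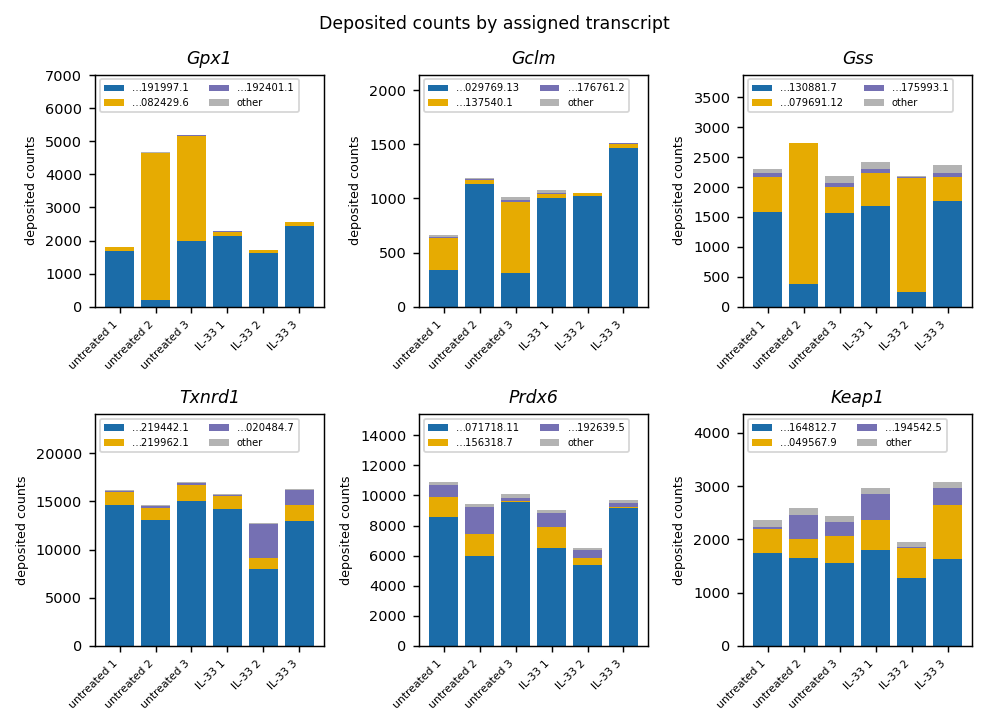
Deposited counts of 6 genes in each library, stacked by assigned transcript (the 3 with the highest mean share in blue, yellow and purple, the rest in grey). The yellow Gpx1 transcript ENSMUST00000082429.6 is tall in untreated replicates 2 and 3 alone, and the leading transcript of Gss changes in untreated replicate 2 and IL-33 replicate 2.

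Other genes showed the same kind of shift between libraries of one group. For Gclm, the non-coding ENSMUST00000137540.1 had 295, 33 and 652 deposited counts without IL-33 and 32, 28 and 36 with it, and made up 44.6%, 2.78% and 64.4% of the untreated and 2.96%, 2.66% and 2.38% of the IL-33 counts. Untreated replicates 1 and 3, where that share was high, were the 2 libraries with the lowest Gclm level, and the transcript did not pass (log2 fold change -3.20, SE 1.02, edgeR adjusted p = 1.00). The coding ENSMUST00000029769.13 had 336, 1133 and 315 deposited counts without IL-33 and 1005, 1018 and 1466 with it.

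For Gss, ENSMUST00000130881.7 had 1579, 378 and 1561 deposited counts without IL-33 and 1689, 238 and 1759 with it, and ENSMUST00000079691.12 had 581, 2351 and 434 deposited counts without IL-33 and 542, 1909 and 412 with it. The 2 libraries numbered 2 were those in which the second transcript led, and they also had the highest Gss level of their groups. All 1724 exonic bases of the first lie within the 1963 of the second. Neither differed between the groups past the test (edgeR adjusted p = 1.00 for both). For Taldo1, the libraries numbered 3 stood apart: ENSMUST00000211654.1 made up 0.842%, 0.742% and 15.1% of the untreated and 1.27%, 1.31% and 14.6% of the IL-33 counts. In Osgin1 and Gstm1, ENSMUST00000131448.7 and ENSMUST00000153314.7 held counts in the libraries numbered 1 alone, at 30 and 13 and at 35 and 25 deposited counts (untreated and IL-33).

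For Txnrd1, ENSMUST00000020484.7 had 162, 259 and 172 deposited counts without IL-33 and 158, 3514 and 1610 with it. The high values were those of IL-33 replicates 2 and 3, and IL-33 replicate 1 was the lowest of all 6 (log2 fold change 3.38, SE 1.16, edgeR adjusted p = 1.00). Its leading transcript ENSMUST00000219442.1 held 90.6%, 89.7% and 88.7% of the untreated and 90.4%, 62.6% and 79.5% of the IL-33 counts, while the Txnrd1 gene level hardly differed. For Keap1, ENSMUST00000049567.9 had 450, 361 and 509 deposited counts without IL-33 and 562, 553 and 1014 with it, all IL-33 values above all untreated ones (log2 fold change 0.79, SE 0.263, edgeR adjusted p = 1.00). Its main transcript ENSMUST00000164812.7, with the same first coding base, stayed near 0 at 0.03.

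Srxn1 and Abcc1 showed no such shift. ENSMUST00000041500.7 held a mean 98.4% of the Srxn1 counts, with a log2 fold change of -0.27 (SE 0.0827, unadjusted edgeR p 0.02, adjusted p 1.00), and ENSMUST00000100167.9 held 98.0% of the Abcc1 counts. For Prdx6 the leading ENSMUST00000071718.11 held 78.8%, 63.8% and 94.8% of the untreated and 72.1%, 83.0% and 94.8% of the IL-33 counts, and its own log2 fold change was -0.10 with an SE of 0.193. Tkt and Blvrb each had 1 untreated library in which the leading transcript held less than elsewhere, at 67.6% of Tkt counts in replicate 1 and 41.0% of Blvrb counts in replicate 3.

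A further 127 genes of the same processes, taken from lists of NRF2 control, other NRF2 targets, other transferases, glutathione turnover, the wider thioredoxin system, NADPH supply, heme and iron, peroxide removal, oxidant production and selenoprotein synthesis, were read from the same fit. Of these, 114 were tested, 0 passed and 6 (5.26%) had an unadjusted p under 0.05 in edgeR, with 68 above 0 and 46 below and a median log2 fold change of 0.02. The 13 that control NRF2 had 5 above 0 and none past an unadjusted p of 0.05; the smallest p was that of Rbx1, the RING subunit of the ligase that KEAP1 serves, at 92.4 ± 5.14 CPM without and 85.2 ± 0.674 CPM with IL-33 (log2 fold change -0.12, SE 0.0583, edgeR adjusted p = 0.763). Of 9 tested other NRF2 targets 5 were above 0, with Cbr1, a carbonyl reductase, at 33.3 ± 1.04 CPM without and 35.8 ± 1.60 CPM with IL-33. Of 16 tested other transferases 12 were above 0. Among those with a mean log2 CPM of at least 1, Gstm4 had the smallest p. It lay below 0, at 12.5 ± 1.28 CPM without and 10.8 ± 0.779 CPM with IL-33. Gsta2, at a lower level and chosen after its values were seen, had a smaller p (unadjusted edgeR p 0.0715, adjusted p 0.763, log2 fold change -0.77).

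Slc3a2, the heavy chain that the cystine importer Slc7a11 needs to reach the membrane, had the smallest p of the 114. It had 399, 412 and 392 CPM in the untreated libraries and 376, 349 and 355 CPM in the IL-33 libraries. Every IL-33 value was below every untreated one, and it did not pass (log2 fold change -0.16, SE 0.0421, edgeR adjusted p = 0.548; unadjusted p 0.00438). Slc7a11 itself differed by 0.06 on the log2 scale (SE 0.133).

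In the wider thioredoxin system 10 of 17 genes were above 0. Msrb3, a methionine sulfoxide reductase, stood at 35.2 ± 2.15 CPM without and 40.7 ± 3.60 CPM with IL-33 (log2 fold change 0.21, SE 0.0861, edgeR adjusted p = 0.74). The mitochondrial thioredoxin Txn2, chosen after its values were seen, stood at 71.2 ± 12.8 CPM without and 57.3 ± 3.65 CPM with IL-33 and was the other of this list with an unadjusted p under 0.05. Idh2, the mitochondrial isocitrate dehydrogenase that makes NADPH, stood at 96.6 ± 2.502 CPM without and 108 ± 7.37 CPM with IL-33 (log2 fold change 0.16, SE 0.0616, edgeR adjusted p = 0.74), in a list with 8 of 15 above 0.

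In iron handling, with 8 of 11 above 0, the transferrin receptor gene Tfrc stood at 146 ± 11.7 CPM without and 123 ± 20.3 CPM with IL-33 and its groups overlapped. Ccs, the copper chaperone that loads Sod1, stood at 18.5 ± 0.777 CPM without and 20.9 ± 1.45 CPM with IL-33, in a list of peroxide removal with 5 of 7 above 0. Sepsecs, the enzyme that makes the selenocysteine-charged tRNA, had 10.6, 14.9 and 14.01 CPM in the untreated libraries and 16.1, 18.1 and 18.7 CPM in the IL-33 libraries (log2 fold change 0.42, SE 0.139, edgeR adjusted p = 0.687). All IL-33 values were above all untreated ones, in a list with 4 of 6 above 0.

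Among genes of oxidant production, 2 of 6 tested were above 0. Nox1, an NADPH oxidase that makes superoxide, was low and had 4.24, 3.26 and 3.48 CPM in the untreated libraries and 1.39, 1.12 and 2.74 CPM in the IL-33 libraries (log2 fold change -1.06, SE 0.329, edgeR adjusted p = 0.65). Its IL-33 values were all below its untreated values. Rac1, a GTPase that serves the oxidase, was chosen after its values were seen and had 448, 162 and 431 CPM in the untreated libraries and 177, 175 and 174 CPM in the IL-33 libraries. Untreated replicates 1 and 3 were high, and untreated replicate 2 lay below the IL-33 libraries. Rac1 did not pass (log2 fold change -0.99, SE 0.441, edgeR adjusted p = 0.763), but without untreated replicate 2 it did, lower with IL-33 at a log2 fold change of -1.33 and an edgeR adjusted p of 1.59e-05, where 0.0802% of all genes were called.

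**Figure D5:**
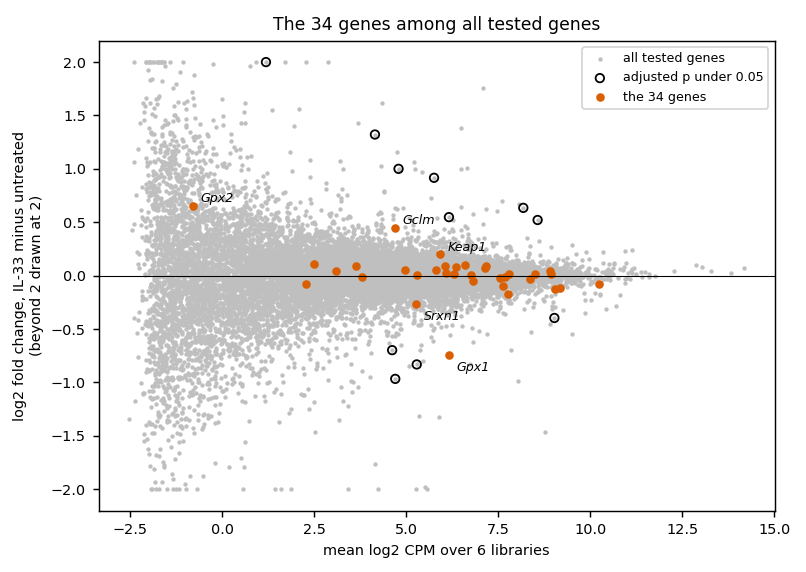
Log2 fold change (IL-33 minus untreated, values beyond 2 drawn at 2) against mean log2 CPM over the 6 libraries for all 15778 tested genes (grey), the 11 called genes (open circles) and the 34 genes described here (orange). The 34 lie in the band of the other genes, and Gpx1 is the lowest of them.

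The libraries differed little over the 34 genes as a whole. Their summed level was 6348, 6411 and 6369.9 CPM in the untreated libraries and 6182, 6148 and 6273 CPM in the IL-33 libraries. The IL-33 sums were the lower ones, and without Gpx1 they remained so, at 6255 to 6308 CPM without and 6097 to 6215 CPM with IL-33. Such a sum follows its most abundant genes, foremost Ftl1 and Prdx1, both of which had log2 fold changes below 0. Untreated replicate 1 gave the lowest of the 6 values for 10 of the 34 genes, beside 16.9% of all tested genes, and IL-33 replicate 2 for 9, beside 18.5%.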

How the data were processed

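Messenger RNA libraries made with a VAHTS kit from mouse primary keratinocytes, 3 untreated and 3 with IL-33, were compared. Per the submitters' processing notes, the tools were HISAT2 2.1.0, DESeq2 1.18.1, StringTie 1.3.4d and FastQC 0.11.7 on mm10; their roles are not stated there. The authors deposited estimated counts per gene and transcript, as whole numbers, and the low values pile up at multiples of 4, so 4 deposited counts were taken as about 1 fragment. The authors also deposited FPKM values, which are fragments scaled to feature length and library depth, per the file headers. The annotation release and strand setting are not given in the sources used here. Of 52550 gene identifiers, 52403 were matched to symbols through GENCODE M21. The libraries held 34188173 to 45266298 deposited counts, about 8547043 to 11316574 fragments. The floor of 3 fragments, 12 deposited counts, covers counting error only. All 37 mitochondrial genes were at 0 in every library. No library was a copy of another: over pairs, the median chi-square per gene was 1.88 to 2.74 times what sampling alone gives.

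The main test was edgeR 4.0.16 (R 4.3.3), quasi-likelihood with a robust fit, TMM scaling and filterByExpr at a minimum count of 10, IL-33 against untreated, on all 6 libraries, with Benjamini-Hochberg adjustment over all tested genes and a threshold of 0.05. The same test was run on transcripts. It was tested on simulated data. The alternatives each replaced the named setting and kept the rest where the tool allowed, so that DESeq2, limma on FPKM and the filters also changed which genes were tested: relative log expression or upper-quartile scaling, limma-voom, DESeq2 1.42.0, limma 3.58.1 on log2(FPKM + 0.1) and log2(FPKM + 1) with a minimum mean FPKM of 0.1 or none, no filter, a stricter filter at a mean log2 CPM of 1, counts divided by 4, an adjusted p of 0.1, a replicate block, and each library left out. The 34 genes, the wider lists and the cell type markers were chosen with earlier results of these data known. All 34 genes are named. Values in every library are given for the regulators and, in each role, for the gene with the highest FPKM, the largest log2 fold change and the smallest p. Of the wider lists, the gene with the smallest p in each is named, among those with a mean log2 CPM of at least 1. Of transcripts, the 5 with the smallest p are named, and leading transcripts where a result turns on them. Library values of other genes were added after those values were seen. Promoter windows and motif sites come from RefSeq (GRCm38.p6), selenocysteine codons and exons from GENCODE M21 (GRCm38).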

Additional observations from a re-analysis of the deposited data

How the results depend on the processing

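Of the 576 log2 fold changes that the 34 genes had over 17 alternatives, 546 kept their direction and side of the threshold, 29 changed sign and 1 passed the threshold. 19 genes, Srxn1, Prdx6, Abcc1, Gclm and Gpx1 among them, kept their sign in all alternatives. When each library was left out in turn, the log2 fold changes ran over these ranges: Nfe2l2 -0.030 to 0.0039, Nqo1 -0.098 to 0.076, Hmox1 -0.015 to 0.049, Blvrb -0.12 to 0.24, Slc7a11 -0.046 to 0.20, Gclc -0.0026 to 0.16, Gss -0.034 to 0.20, Gsta4 -0.10 to 0.17. For the remaining genes that changed sign they were Gstm1 -0.050 to 0.31, Txn1 -0.019 to 0.051, Txnrd1 -0.0098 to 0.039, G6pdx -0.011 to 0.021, Taldo1 -0.054 to 0.015, Me1 -0.049 to 0.033 and Sod1 -0.0018 to 0.042. Without the filter on low counts, G6pdx was at -0.0050 and Me1 at -0.0023, and with the stricter filter G6pdx was at -5.3e-05.

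The number of the 34 genes called was 0 in every alternative except 1, and ran from 0 to 1 when libraries were left out; Gpx1 was called without untreated replicate 1. For the wider list the number ran from 0 to 1, with Rac1 called without untreated replicate 2. For transcripts of the 34 genes it ran from 0 to 1, with a Gpx1 transcript called without untreated replicate 1, and DESeq2 called 1, the same transcript.

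Over all genes, 11 were called by the main test, 60 by DESeq2, 5 by limma-voom, 17 without the filter and 4 by limma on log2(FPKM + 0.1), 4 on log2(FPKM + 1) and 4 on log2(FPKM + 0.1) without a filter, and leaving out libraries gave 11 to 90. The 90 came without IL-33 replicate 3; omitting IL-33 replicate 1 gave 20, and omitting untreated replicate 3 gave 18. Over all transcripts, 12 were called by the main test, 535 by DESeq2, 5 by limma-voom, 33 by limma on log2(FPKM + 0.1) and 25 without its filter, and leaving out libraries gave 6 to 28: the 6 belongs to the omission of untreated replicate 2, the 28 to that of IL-33 replicate 3, and omitting IL-33 replicate 1 gave 7. The cause of these moves was not tested.

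With the replicate number as a block, 0 of the 34 genes were called (smallest edgeR adjusted p = 0.666), and transcript calls went to 0. Samples of the same number did not deviate together over all tested features, so the number was not taken as pairing. Correlations of their deviations from the group means were 0.03, -0.00 and -0.02 over tested genes and -0.02, 0.00 and 0.00 over tested transcripts. Even so, transcripts of Gss, Taldo1, Osgin1, Gstm1 and Prdx6 were high or present in same-numbered libraries of both groups. Of the 34 genes, Gpx2 alone had a library under the floor of 12 deposited counts. The standard errors were highest for Gpx2, Gpx1 and Gclm.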
